A study of Arabidopsis thaliana with 4 samples.

Results

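ARL (ARGOS-LIKE, AT2G44080) was followed in seedlings that overproduce the peptide hormone AtRALF1. It is 1 gene among the 13350 that have an array probe set named for them alone, and it was selected on its signals in the same 4 arrays, where it stood among the clearest increases in 35S:AtRALF1 seedlings. Its own values in that comparison are therefore given as a description, without a test. Whole seedlings, 1 week old, were hybridized to 4 Affymetrix arrays, 2 for the control group and 2 for the 35S:AtRALF1 plants, each group with a 1st and a 2nd repeat. The control samples were equal mixtures of RNA from the wild type and from plants that carry pART27, the transformation vector, without an insert. The 35S:AtRALF1 samples were equal mixtures of RNA from a pair of transgenic lines, named in the labels 35S:AtRALF1-1-I and 35S:AtRALF1-1-II, in which the strong and nearly ubiquitous cauliflower mosaic virus 35S promoter drives the coding sequence. All seedlings shared the same conditions, with 48 h of cold followed by vertical growth at 24 °C and 16 h days. Because lines were mixed before labelling, no array shows 1 line alone, and nothing in the labels says whether a repeat is a separate planting or a second hybridization, so the spread between arrays may be technical.

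Organ size in plants depends on how many cells are made and on how far each of them expands. The ARGOS family of Arabidopsis consists of small membrane proteins that promote organ growth. ARGOS itself, which is induced by auxin, prolongs cell division in young organs, whereas ARL acts mainly on cell expansion. ARL transcripts are known to rise after treatment with brassinosteroid, the steroid hormone perceived by the receptor kinase BRI1, and raised ARL levels enlarge cotyledons and leaves. RALF peptides, in contrast, restrain cell elongation. Members of the ARGOS family also lower the sensitivity of plants to ethylene when they are overproduced.

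ARL transcripts were about 3-fold more abundant in the 35S:AtRALF1 seedlings. The ARL probe set had a signal of 93.2 in the 1st and 103.7 in the 2nd control array. In the 35S:AtRALF1 arrays the signals were 323.6 and 269.9. The groups did not overlap, as in 13.3% of all probe sets in this direction. The lower 35S:AtRALF1 array was 2.60 times the higher control array. The control mean was 98.5 ± 7.42 and the 35S:AtRALF1 mean 297 ± 38.0 (SD, n = 2 arrays), so that the ratio of means was 3.01. Within the 1st repeat the ratio was 3.47 and within the 2nd it was 2.60. On the log2(signal + 16) scale, on which 16 units are added to every signal, ARL changed by 1.64 in the 1st repeat and by 1.26 in the 2nd. The log2 fold change over both was 1.45, with a standard error of 0.23 from limma.

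**Figure D1:**
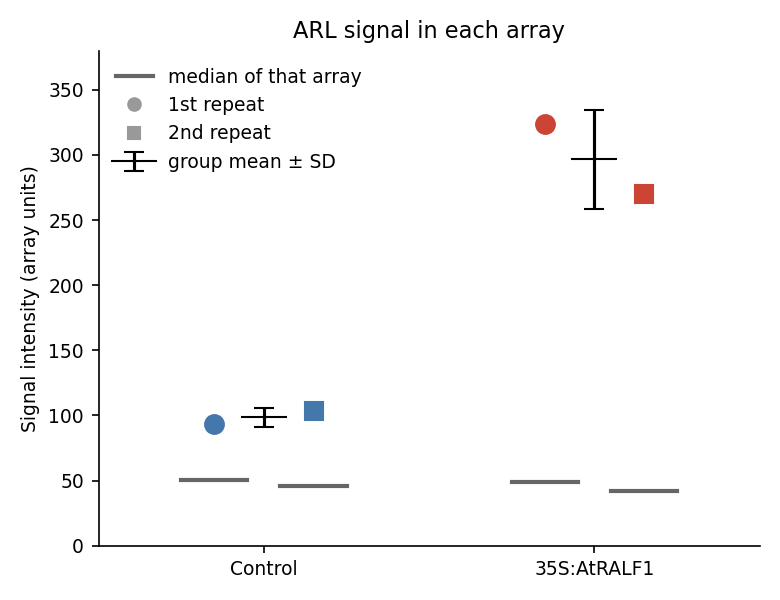
Signal of ARL (array units, linear scale from 0) in each of the 4 arrays, with the mean and SD of each group (n = 2) and the median of all probe sets of each array as a grey line. The control signals of 93.2 and 103.7 lie far below the 35S:AtRALF1 signals of 323.6 and 269.9, and all 4 lie above the median of their array.

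The order of the 4 arrays was 35S:AtRALF1 1st repeat, 35S:AtRALF1 2nd repeat, control 2nd repeat and control 1st repeat. Neighbours in this order within a group were close. The 2nd control array was 1.11 times the 1st, and the 2nd 35S:AtRALF1 array was 0.834 times the 1st. On the log2(signal + 16) scale these differences were 0.13 and -0.25, against 1.45 between the groups. The repeats therefore moved in opposite directions in the control and in the transgenic seedlings. Probe sets of similar mean signal over the 4 arrays typically varied more. Their median absolute difference between repeats was 0.272 among control arrays and 0.408 among 35S:AtRALF1 arrays. The control signals of ARL lay below its mean over the 4 arrays, so the match in brightness does not hold within the control group. ARL was also selected on its signals in these same arrays, so nothing is drawn from its closer repeats.

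The signal of ARL was well within the measured range. It was at the 66.3 and 70.8 percentile of the control arrays and at the 88.7 and 86.6 percentile of the 35S:AtRALF1 arrays. The control signals were 1.85 and 2.25 times the median of their arrays, and the 35S:AtRALF1 signals were 6.67 and 6.43 times. The array medians themselves were between 42.0 and 50.5. These places describe the brightness of the probe set, which also depends on how well its probes bind, and not how abundant ARL is beside other transcripts. Its probe set bears no mark of cross-matching to a second transcript. The table that names the probe sets does not name AtRALF1, and how strongly the transgene was expressed was not analysed here.

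The change of ARL was then ranked among probe sets of similar brightness. The 1000 probe sets nearest to ARL in mean log2(signal + 16) had mean signals (back-transformed) from 152 to 196, around 173 for ARL. Their log2 fold changes had a median of 0.008, a 5th percentile of -0.59 and a 95th percentile of 0.62. ARL, at 1.45, ranked 1 among these 1001 probe sets, ahead of the next value of 1.28. Among the 1000, 13 had a log2 fold change of at least 1 (1.30%), and 3 had one of -1 or lower. The rank depended on the range chosen. It was 3 among the 1000 nearest in the mean of the control arrays and 7 among the 2000 nearest. It was also lower when 1 array was left out and the 1000 nearest probe sets were picked again from the remaining arrays. It was 9 without the 1st control array and 3 without the 2nd, and 13 without the 1st 35S:AtRALF1 array and 5 without the 2nd. These ranks are therefore among other sets of probe sets, and the log2 fold change of ARL itself lay between 1.32 and 1.57. The probe set second in rank had signals of 124.0 and 101.8 in the control arrays, against 524.9 and 163.9 in the 35S:AtRALF1 arrays, so that most of its change came from the 1st repeat. The next probe set, with a log2 fold change of 1.22, had control signals of 129.7 and 80.8 and 35S:AtRALF1 signals of 314.3 and 217.2, with changes of 1.18 and 1.27 in the repeats. The former was uneven between repeats and the latter even. Neither has a gene named for it in the table used.

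**Figure D2:**
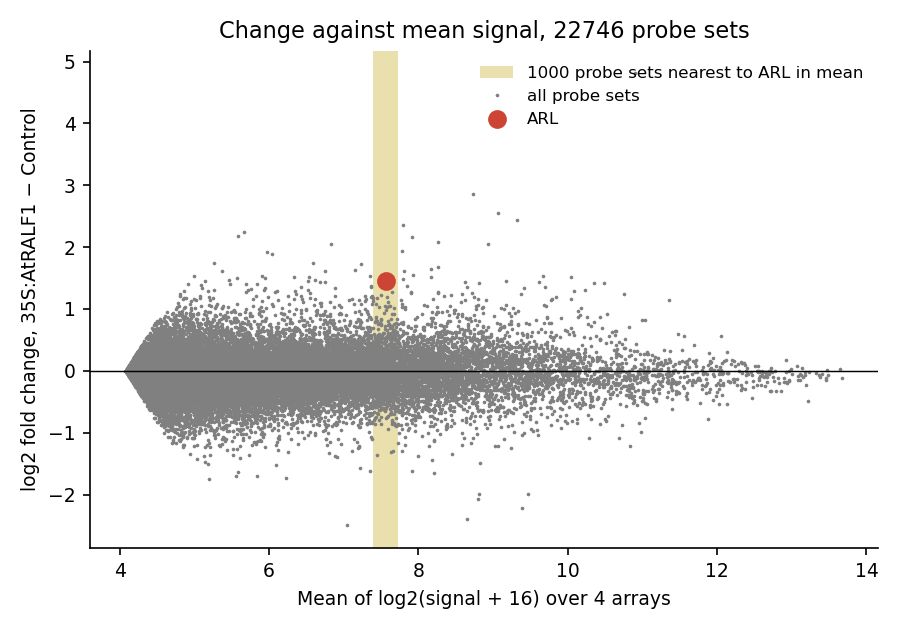
Log2 fold change, 35S:AtRALF1 minus control (vertical axis), against the mean of log2(signal + 16) over the 4 arrays (horizontal axis) for 22746 probe sets as grey points. ARL (red) lies at 1.45, above the other 1000 probe sets of the shaded band, whose highest value is 1.28.

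Within single repeats ARL was not the most changed of these probe sets. It ranked 7 in the 1st repeat and 6 in the 2nd. It ranked 1 when the repeats were combined, by the mean or by the smaller of both changes, and the probe sets that exceeded it in 1 repeat had smaller changes in the other. Across the probe sets of this range the changes of the 1st and 2nd repeats had a Pearson correlation of 0.24, a description over probe sets that come from the same 4 arrays. No other probe set of the band reached a change of 1.26 in both repeats. Only 6 of the other 1000 had a signal at least 2 times higher in both repeats, and 2 had one at least 2 times lower in both.

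**Figure D3:**
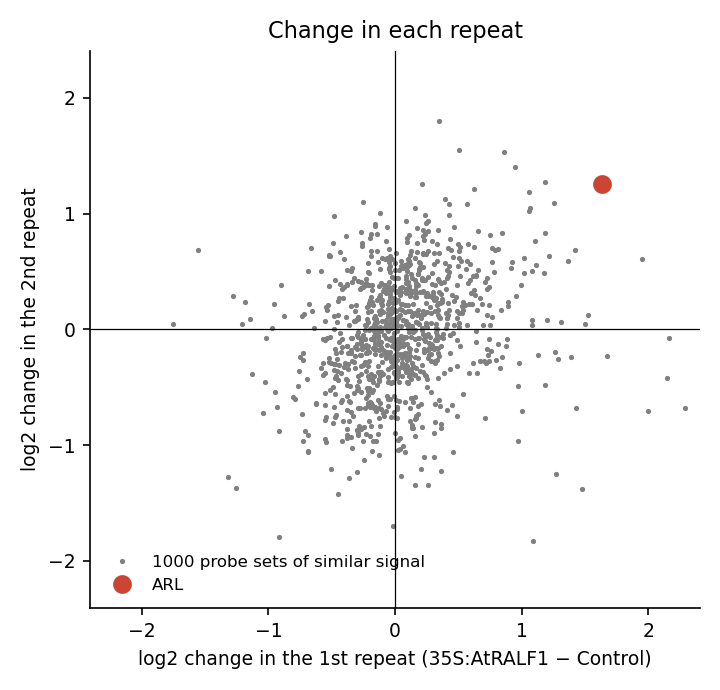
Change between 35S:AtRALF1 and control on the log2(signal + 16) scale in the 1st repeat (horizontal axis) and in the 2nd (vertical axis) for ARL (red) and the 1000 probe sets of similar signal (grey). ARL lies at 1.64 and 1.26, and points beyond it on 1 axis lie lower on the other. Among the nearer points are probe sets at 1.18 and 1.27 and at 1.26 and 1.09.

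Over the whole array ARL was less extreme. Of 22746 probe sets it ranked 41 by log2 fold change, 23 by the smaller of the changes in both repeats, and 10 by the moderated statistic of limma, which divides the change by its error. A change of at least 2-fold in both repeats on the log2(signal + 16) scale was found upward in 68 probe sets (0.299%), ARL among them. Restricted to the 9416 probe sets above the median in all 4 arrays, 10 others had a signal ratio in both repeats at least as large as the 2.60 of ARL. Of these, 4 have a gene named for them alone, AT1G19380, AT2G18690, AT1G78460 and AT1G72060. In AT1G72060 the arrays of a group lay close together, with 103.0 and 121.4 in the control arrays, against 374.1 and 377.0 in the 35S:AtRALF1 arrays. AT2G18690 was uneven in 35S:AtRALF1, with signals of 320.4 and 725.8, against 82.5 and 81.4 in the control.

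Genes with a pattern like that of ARL were sought by the Euclidean distance between their 4 log2(signal + 16) values and those of ARL, after the mean of each probe set had been removed. A distance of 0 means the same differences between arrays, and the median over all probe sets was 1.58. The nearest named gene was AT2G34140 at 0.220, followed by AT5G25440 at 0.250, AT1G72060 at 0.254, AT5G60190 at 0.258 and AT4G28085 at 0.311. Most of them were far dimmer than ARL. AT2G34140 had signals of 8.7 and 14.3 in the control arrays, against 56.0 and 56.4 in the 35S:AtRALF1 arrays. In 8 of the 10 nearest genes, a control signal was below the 40th percentile of its array. AT5G19800, named AtHRGP2 in the study, a hydroxyproline-rich glycoprotein gene of the cell wall, was sixth. Its signals were 18.2 and 23.4 in the control arrays, against 66.6 and 66.4 in the 35S:AtRALF1 arrays. The study picked AtHRGP2 with the help of these same arrays, so its place near ARL is not independent. The others of the 10 were AT5G39020, AT2G36220, AT5G18470 and PDF2.5.

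When only the 11477 probe sets above the 40th percentile of every array were searched, a choice made after the values had been seen, the likeness rested on brighter genes. AT1G72060 came first at a distance of 0.254, and PDF2.5, a gene of the plant defensin family of small cysteine-rich peptides, came second at 0.379. PDF2.5 had signals of 94.5 and 84.9 in the control arrays, against 221.4 and 217.6 in the 35S:AtRALF1 arrays, nearly the control level of ARL and a smaller change. AT1G22890, next at 0.381, had 86.1 and 101.3 in the control arrays, against 296.4 and 184.0 in the 35S:AtRALF1 arrays. The rest were AT4G01700, AT1G32460, AT1G26250, AT2G18370, AT4G25790, AT1G50740 and AT1G30870, at distances of up to 0.459. A correlation over 4 arrays rests on few values and was not used to choose genes. Of the 22745 other probe sets, 457 had a Pearson correlation with ARL over 0.95.

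**Figure D4:**
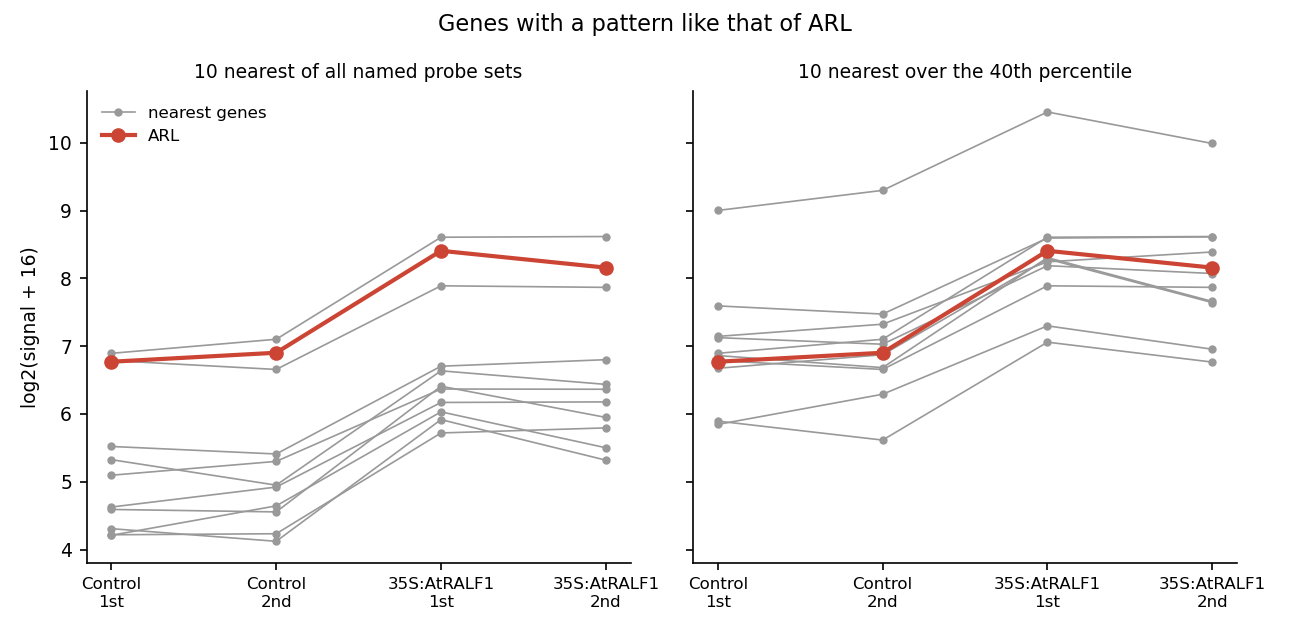
Log2(signal + 16) in the 4 arrays for ARL (red) and, in grey, the 10 nearest genes among all named probe sets (left) and among those above the 40th percentile of every array (right). Lines only join the values of 1 gene. On the left 8 of the 10 genes lie well below ARL, whereas on the right they surround it.

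Genes of the pathways in which ARL has been placed were sparsely covered by the table of gene names. Of 129 listed genes for the ARGOS family, brassinosteroid, organ size, ethylene, auxin and the chromosomal neighbours, 17 had a probe set named for them alone. The others may be among the 8730 probe sets without a gene name or the 503 with several, and were not analysed here. In the ARGOS family ARL was the only 1 of 4, and ARGOS, OSR1 and OSR2 were not analysed here. Over the whole array, limma called 0 of the 22746 probe sets at an adjusted p under 0.05 (0%), and at an unadjusted p under 0.05 it found 458 higher (2.01%) and 522 lower (2.29%). None of the listed genes was therefore called. The median log2 fold change over all probe sets was -0.042.

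For brassinosteroid, 4 of 65 listed genes had a named probe set. None of the 18 for its synthesis and inactivation, CPD and DWF4 among them, was named in the table, and these were not analysed here. EXO and EXPA8, an extracellular growth protein and an expansin whose transcripts brassinosteroid is known to raise, went different ways in the repeats. EXO had signals of 316.4 and 569.1 in the control arrays, against 1011.9 and 377.6 in the 35S:AtRALF1 arrays, higher in the 1st repeat and lower in the 2nd. Its log2 fold change was 0.53, with a standard error of 0.56 (limma, adjusted p = 0.987). EXPA8 showed the reverse, with 392.2 and 301.6 in the control arrays, against 156.8 and 411.1 in the 35S:AtRALF1 arrays. For EXPA8 the log2 fold change was -0.41, with 0.49 as its standard error (limma, adjusted p = 0.987). In both genes the groups overlapped. ARL, which brassinosteroid also raises, had a change of the same sign in both repeats. ARL was selected for its increase in these same arrays, so nothing is drawn from this difference to EXO and EXPA8.

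The remaining brassinosteroid genes had log2 fold changes between -0.14 and 0.30. BIM1, a partner of the transcription factors that act at the end of the brassinosteroid pathway, had signals of 112.9 and 85.4 in the control arrays, against 91.5 and 83.5 in the 35S:AtRALF1 arrays, which gave a log2 fold change of -0.14. The signals of BRL1, a receptor related to BRI1, were 17.3 and 9.2 against 8.0 and 17.4, all below the 40th percentile. BRL1 went different ways in the repeats, with ratios of 0.462 in the 1st and 1.89 in the 2nd. Among genes with brassinosteroid in their RefSeq name, added after the data had been seen, BRH1 was the brighter. BRH1, a RING-H2 protein responsive to brassinosteroid, had 551.5 and 460.9 in the control arrays, against 559.8 and 700.1 in the 35S:AtRALF1 arrays, so its groups did not overlap. That direction without overlap was found in 13.3% of all probe sets, and its log2 fold change of 0.30 did not pass (adjusted p = 0.987 from limma). BIN4, needed for rounds of DNA replication without division that accompany cell enlargement, had signals of 13.7 to 27.5 in the 4 arrays.

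RTE1 and EIN3 were the ethylene genes with named probe sets. RTE1 is a membrane protein that promotes the activity of the ethylene receptor ETR1 and so restrains the ethylene response. Its signals were 86.3 and 58.3 in the control arrays, against 154.9 and 169.1 in the 35S:AtRALF1 arrays, a ratio of 2.24. It was higher without overlap, as were 13.3% of all probe sets. The log2 fold change was 1.03 (standard error 0.27), with an unadjusted p of 0.0151, which after adjustment over the whole array became 0.987 (limma). Of all probe sets, 2.01% were higher at an unadjusted p under 0.05 from limma. The change of RTE1 was 0.74 in the 1st repeat and 1.32 in the 2nd. Its larger change was thus in the 2nd repeat, whereas for ARL it was in the 1st. EIN3, the transcription factor that carries the ethylene response, had 274.8 and 237.4 in the control arrays, against 354.7 and 188.3 in the 35S:AtRALF1 arrays, with a log2 fold change of 0.02. These were 2 of 23 genes listed for ethylene, and both had positive log2 fold changes, as had 43.9% of all probe sets.

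Of 14 listed auxin-induced genes, 5 had named probe sets, with a median log2 fold change of 0.33, and 3 of them were higher without overlap (13.3% of all probe sets). GH3.3, which encodes an enzyme that conjugates auxin to amino acids, had signals of 30.3 and 46.0 in the control arrays, against 49.1 and 228.8 in the 35S:AtRALF1 arrays. Its log2 fold change of 1.24 had a standard error of 0.69 (adjusted p = 0.987 from limma). It was 0.28 without the 2nd 35S:AtRALF1 array and 2.19 without the 1st. WES1, also known as GH3.5, had 220.6 and 237.1 in the control arrays, against 267.4 and 352.5 in the 35S:AtRALF1 arrays, which gave a log2 fold change of 0.40. LBD29, a factor of lateral root formation, had signals of 3.0 to 11.1, below the 40th percentile of each array. Among the genes with GH3 in their RefSeq symbol, added after the data had been seen, 4 of 5 had named probe sets, 1 with a positive and 3 with a negative log2 fold change and a median of -0.09. GH3.9 was lower without overlap, as were 18.1% of all probe sets, with signals of 34.0 and 33.2 in the control arrays, against 25.3 and 18.7 in the 35S:AtRALF1 arrays. IAA29 and LBD16 had log2 fold changes of -0.27 and -0.07. In the Aux/IAA family of auxin response repressors, added after the data had been seen, 7 of 24 genes had named probe sets, 2 with a positive and 5 with a negative log2 fold change and a median of -0.24.

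Gibberellin, another hormone of cell elongation, is perceived by the GID1 receptors, which were also added after the data had been seen. All 3 had named probe sets, with positive log2 fold changes, 0.14 for GID1A, 0.71 for GID1B and 0.50 for GID1C. None passed the test. GID1B had signals of 46.4 and 75.9 in the control arrays, against 66.1 and 170.8 in the 35S:AtRALF1 arrays, so its groups overlapped. GID1C had 39.8 and 45.3 against 52.5 and 83.5, without overlap. Over all probe sets 43.9% had a positive log2 fold change and 13.3% were higher without overlap.

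Of the 21 listed regulators of organ size and cell expansion, AN and JAG had named probe sets. AN, which shapes leaves through the direction of cell expansion, had signals of 102.0 and 94.6 in the control arrays, against 138.8 and 95.2 in the 35S:AtRALF1 arrays, which gave a log2 fold change of 0.20. JAG, a factor for the growth of lateral organs, had signals of 4.6 to 18.5, all below the 40th percentile.

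The genes on either side of ARL on chromosome 2 had log2 fold changes far from the 1.45 of ARL. So had most probe sets, since ARL was selected for its change and ranked 41 of 22746. The neighbour after it, AT2G44090, had signals of 123.5 and 108.5 in the control arrays, against 98.6 and 141.2 in the 35S:AtRALF1 arrays, which gave a log2 fold change of 0.03. The gene before it, AT2G44070, has no probe set named for it alone. The nearest gene with a named probe set on that side, AT2G44065, had 117.9 and 127.7 against 119.6 and 63.3, a log2 fold change of -0.42 that was -0.033 without the 2nd 35S:AtRALF1 array and -0.81 without the 1st. Over the 10 nearest such genes on each side, a range chosen after the data had been seen, log2 fold changes lay between -0.64 and 0.43. Their median was -0.09, against -0.042 over all probe sets. Of these 20 genes, 1 was higher and 5 were lower without overlap, where all probe sets gave 13.3% and 18.1%. None passed (adjusted p over all probe sets from limma).

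**Figure D5:**
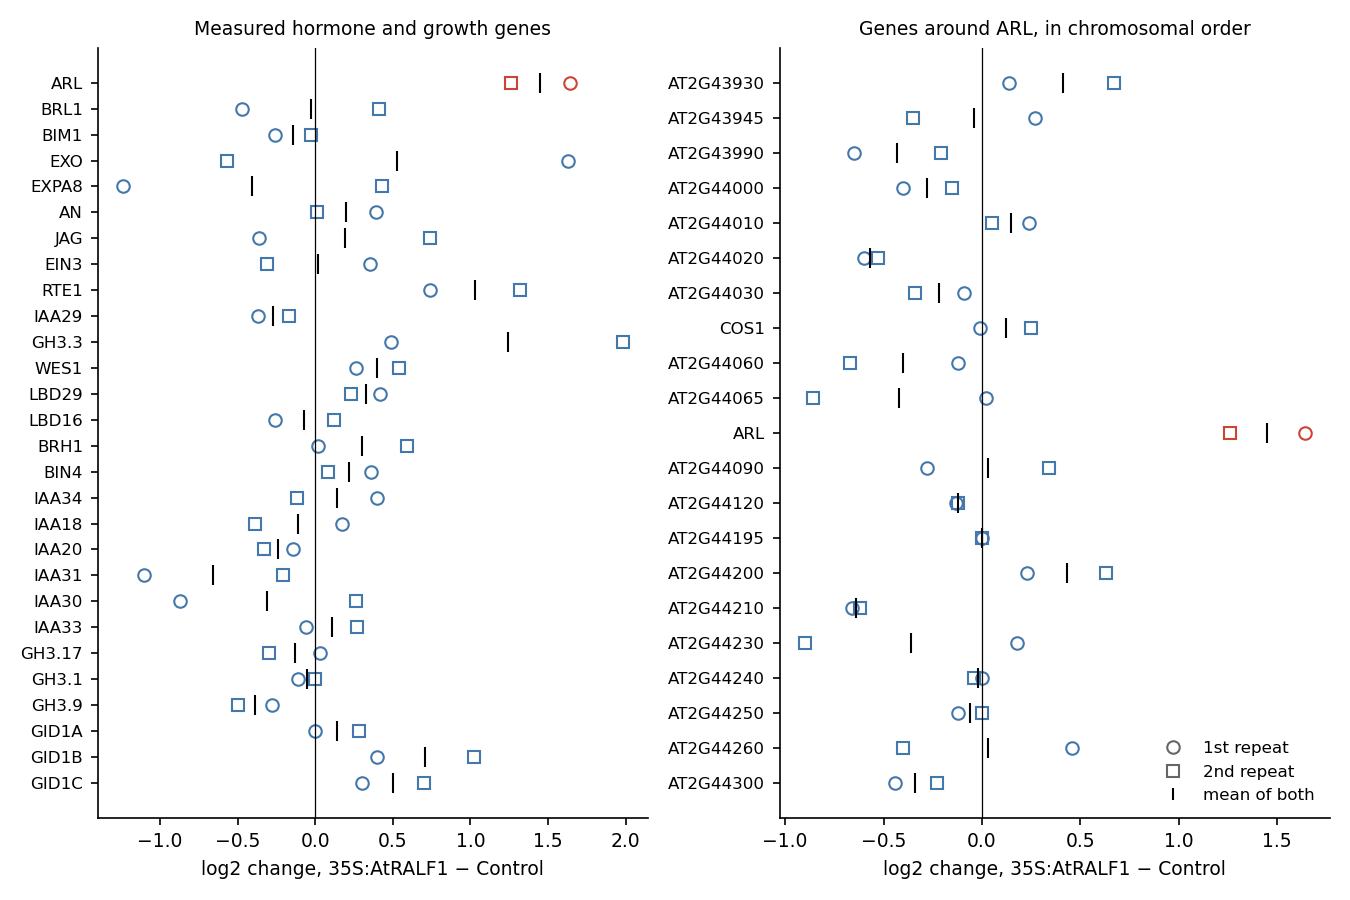
Change between 35S:AtRALF1 and control on the log2(signal + 16) scale in the 1st repeat (circles) and 2nd repeat (squares), with the mean as a bar, for ARL (red) and the named hormone and growth genes (left) and for the 10 named genes on each side of ARL on chromosome 2 (right). ARL is at 1.64 and 1.26, RTE1 lies at 0.74 and 1.32, and the chromosomal neighbours have means between -0.64 and 0.43.

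In whole seedlings a higher signal can come from more cells of a kind or from more RNA in each, and the arrays cannot tell these apart. Markers of shoot and root were therefore set beside ARL. Of 12 shoot markers 4 had named probe sets, RCA, LHCB4.1, PSBW and ATPC1, with summed signals of 32716 and 24787 in the control arrays, against 29917 and 24113 in the 35S:AtRALF1 arrays. These sums differed more between the repeats than between the groups. Of 10 root markers 3 had named probe sets, with sums of 7277 and 6307 in the control arrays, against 5983 and 4407 in the 35S:AtRALF1 arrays, set mainly by PYK10. The root hair expansins EXPA7 and EXPA18 went the other way, from 62.2 and 107.1 to 111.3 and 130.7 and from 135.7 and 99.6 to 156.8 and 190.8. All 3 root markers had groups without overlap, PYK10 lower and both expansins higher, and of the shoot markers RCA was lower without overlap, where 13.3% of all probe sets were higher and 18.1% lower in this way. The signals of RCA were 9925.7 and 8932.5 in the control arrays, against 8571.6 and 8916.0 in the 35S:AtRALF1 arrays. The part of tissue makeup in the ARL signal was not tested. SPL, a gene of flowers and the only 1 with a named probe set of 8 markers of organs that seedlings lack, had signals of 1.2 to 3.6.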

How the data were processed

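The authors deposited 1 linear signal intensity per probe set and array, already scaled, with a 2% trimmed mean of 125.0 in each array. The sources used here do not give the software that made them, nor how background was treated. They were used as deposited. After removal of 64 array controls, 22746 of 22810 probe sets were compared. Signals were raised to at least 1 and analysed as log2(signal + 16), which understates changes of dim genes. The comparison of groups used limma 3.58.1 (R 4.3.3, intensity trend, two-sided, Benjamini-Hochberg over all probe sets, threshold 0.05), tested on simulated data. Ranks and distances were computed in Python 3.11.15. With 2 against 2 arrays the smallest exact permutation p is 0.333, and the number of arrays limits the precision.

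Genes were named through the platform's probe table and the RefSeq table of TAIR10.1 (names and gene order only): 13508 of 13513 probe sets with 1 gene matched a locus, 503 had several genes and 8730 none. A gene with several probe sets was represented by the one with the highest mean. ARL and the gene lists were chosen with earlier results of these data known. Genes named are ARL, listed genes with a probe set of their own (the 3 largest changes upward and 2 downward per list), and the 10 nearest to ARL. Other genes were named after their values had been seen. Alternatives were offsets of 1 and 64, quantile and cyclic loess normalization, the brightest 60% of probe sets alone, a fit without the trend, the replicate number as a block, each array left out, and other ranges of similar signal and measures of likeness.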

Additional observations from a re-analysis of the deposited data

How the results depend on the processing

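Both 35S:AtRALF1 signals of ARL lay above both control signals, so another offset, a left-out array or the replicate block could not reverse its change. The log2 fold change of ARL kept its direction in every setting. It was 1.15 with an offset of 64, between 1.44 and 1.58 with an offset of 1, either normalization or the brightest 60% of probe sets, and between 1.32 and 1.57 with any 1 array left out. With the replicate block it was 1.45, since the design is balanced. Its rank was 7 among the 2000 nearest probe sets, 3 among the 1000 nearest in the mean of the control arrays and 2 with an offset of 64. With any 1 array left out, and the 1000 nearest picked again, it lay between 3 and 13, 13 being without the 1st 35S:AtRALF1 array. The cause was not tested.

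The set of genes most like ARL depended on the measure. Of the 10 nearest, 2 were shared with an offset of 1, 2 with 64, 2 when only probe sets over the 40th percentile in every array were searched, and 0 with Pearson correlation. Within the brighter probe sets, 9 of 10 were shared with an offset of 1 and 8 with 64. Limma called 1 probe set among the brightest 60% and 1 with the replicate block, in both cases an unnamed probe set and not ARL, and 0 in the other settings. The labels do not say what a shared replicate number stands for. Deviations from the group means correlated at 0.39 across probe sets between same-numbered arrays, and 2 pairs do not settle whether the numbers mark pairs.

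Other named genes were checked in the same settings, apart from the markers and the genes added or named after their values had been seen. Limma called at most 1 probe set in any setting, so an unchanged call says little about these genes. Of 251 values of 26 other named genes, none changed its call and 21, in 11 genes, changed sign. With quantile and cyclic loess normalization these were BRL1 (0.046 and 0.026) and LBD16 (0.0082 and 0.0050), and EIN3 with cyclic loess (-0.0091). Leaving out 1 array at a time moved the log2 fold change from -0.27 to 0.21 for BRL1, from -0.32 to 0.028 for BIM1, from -0.16 to 1.22 for EXO, from -1.06 to 0.25 for EXPA8, from -0.039 to 0.44 for AN, from -0.13 to 0.51 for JAG, from -0.41 to 0.45 for EIN3, from -0.60 to 0.065 for IAA29, from -0.20 to 0.065 for LBD16, from -1.12 to 0.32 for AT2G44060 and from -0.20 to 0.25 for AT2G44090. Without a change of sign, it moved from 0.28 to 2.19 for GH3.3, from 0.21 to 0.59 for WES1, from 0.19 to 0.47 for LBD29 and from -0.81 to -0.033 for AT2G44065. No detection calls were used, so how far dim signals lie above background was not examined.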
